A study of Rattus norvegicus with 17 samples.

Results

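Regenerating, axotomised spinal cord neurons were compared with traced, uninjured ones on rat Affymetrix expression arrays. The comparison takes 10 of the 17 arrays of the series: 7 whose titles begin with Regenerating (animals MOON265, MOON266, MM11, MM13, MM14, MM16 and MM17) and 3 whose titles begin with Traced (animals MM15, MM18 and MM19). Each array holds amplified RNA of 1000 retrogradely traced neurons, cut out by laser from cross sections of unfixed cord of 10 µm, and the amplification took 3 rounds. No rat gave both kinds of neuron, so the comparison is between animals, with 1 array per rat. By the labels the neurons of the first group were axotomised and regenerating, and those of the second were traced and not axotomised. The strain, the age, the kind of injury or graft and the time after injury are not given in the sources used here. The 7 non-regenerating arrays, of axotomised neurons from the same 7 rats, enter only where a within-animal value is given.

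Most neurons of the adult spinal cord do not regrow an axon once it is cut, although some do so when offered a permissive environment such as a peripheral nerve graft. In neurons of peripheral ganglia, regrowth goes with a programme of injury-induced transcription factors (Atf3, Jun, Stat3, Sox11), growth cone proteins (Gap43, Stmn2) and neuropeptides (Gal, Vip, Npy). Around an axotomised cell body in the cord, microglia and astrocytes also react, with phagocyte, complement and Gfap expression, and a laser-captured cell body can carry some neighbouring tissue with it.

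Leukocyte genes and the chemokine genes Cxcl13 and Cxcl16 were among the genes that differed, and the start-site regions of 4 genes that rose are shown first. RefSeq promoter windows of the GRCr8 assembly, from 250 bases before to 50 after the start site, were matched by symbol to 17 of the 24 genes that rose and to 5 of the 5 that fell. They were searched on both strands for the core sites of PU.1, a transcription factor of myeloid and B cells (GAGGAAG), of AP-1, the Fos and Jun dimer (TGANTCA), and of STAT factors (TTCNNNGAA), and no matches overlapped in the windows of these genes. Cxcl13 is shown because its difference was the largest (chr14:13917871-13918170, minus strand), Laptm5 and Arhgap25 because each holds a PU.1 match (chr5:148371630-148371929, plus strand, and chr4:121532244-121532543, minus strand), and C1qa because it holds a STAT match (chr5:154419884-154420183, minus strand). Matches are in capitals, and a match on the other strand appears as its reverse complement.
Cxcl13: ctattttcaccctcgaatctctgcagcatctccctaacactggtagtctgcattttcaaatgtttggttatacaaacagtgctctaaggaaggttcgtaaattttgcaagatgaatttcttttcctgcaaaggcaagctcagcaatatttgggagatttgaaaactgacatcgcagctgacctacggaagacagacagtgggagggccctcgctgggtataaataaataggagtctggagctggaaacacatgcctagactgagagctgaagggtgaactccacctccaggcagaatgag
Laptm5: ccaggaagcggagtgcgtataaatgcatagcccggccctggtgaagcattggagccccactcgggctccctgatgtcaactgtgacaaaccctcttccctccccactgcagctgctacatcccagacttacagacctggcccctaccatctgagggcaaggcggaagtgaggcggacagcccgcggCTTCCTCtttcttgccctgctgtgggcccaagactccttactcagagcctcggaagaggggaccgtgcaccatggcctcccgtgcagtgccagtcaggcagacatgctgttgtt
Arhgap25: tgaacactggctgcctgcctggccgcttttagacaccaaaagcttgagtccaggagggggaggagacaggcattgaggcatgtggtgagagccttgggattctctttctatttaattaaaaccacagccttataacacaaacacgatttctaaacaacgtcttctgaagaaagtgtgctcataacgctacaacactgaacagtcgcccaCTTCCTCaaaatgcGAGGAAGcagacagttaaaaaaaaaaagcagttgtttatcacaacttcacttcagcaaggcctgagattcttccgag
C1qa: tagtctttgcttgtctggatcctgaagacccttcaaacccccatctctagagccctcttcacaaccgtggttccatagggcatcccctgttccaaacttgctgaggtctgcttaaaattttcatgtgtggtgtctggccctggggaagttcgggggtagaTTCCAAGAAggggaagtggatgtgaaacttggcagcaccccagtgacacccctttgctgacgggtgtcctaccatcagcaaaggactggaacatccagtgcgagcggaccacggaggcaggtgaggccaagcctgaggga
The PU.1 letters begin 64 bases before the start site of Laptm5 and, on opposite strands, 41 and 27 bases before that of Arhgap25. The STAT letters begin 90 bases before the start site of C1qa, and the Cxcl13 window holds none of the 3 motifs. Of the 17 matched genes that rose, 4 (23.5%) held the PU.1 letters, against 12.4% of all 33469 promoters in the table. The AP-1 letters stood in 1 of the 17 and the STAT letters in 1, against 7.33% and 8.87% of all promoters. Of the 5 genes that fell, 0 held the PU.1 letters, 0 the AP-1 letters and 1 the STAT letters. A match describes these windows and does not show a bound site.

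The values are signal intensities on a linear scale, which the deposited table scaled to the same trimmed mean of 200 on every array. Median signal over all probe sets was 49.3 ± 10.4 (SD, n = 7) on the regenerating arrays and 68.7 ± 6.35 (SD, n = 3) on the traced ones. The ranges did not overlap (exact permutation test, two-sided p = 0.0167, adjusted p = 0.0625 over 5 measures). The ratio of the 3 prime to the 5 prime control probe set of Gapdh, which grows as transcripts are shortened by degradation or amplification, was 53.4 ± 15.0 (SD, n = 7) against 25 ± 12.9 (SD, n = 3), with an exact two-sided p of 0.025 and an adjusted p of 0.0625. The same ratio for Actb was 28.9 ± 14.9 (SD, n = 7) against 26.1 ± 22.4 (SD, n = 3), with an exact two-sided p of 0.808. Certain libraries stood apart. The traced array of MM15, which its title calls a high yield replicate, had a median correlation of 0.871 with the other arrays, against 0.926 to 0.964 on the regenerating arrays, and its 100 brightest probe sets held 11.8% of the signal. The arrays of MOON265 and MOON266, the only ones with that name prefix, had the lowest median signals, 32.7 and 38.9. The traced group holds no animal with the MOON prefix, so counts are also given for the MM animals alone. Neurons were recognisable on every array: Eno2, Snap25, Gad1, Slc17a6, Nefm and Nefl all lay above the 98th percentile of signal, while Rbfox3 and Uchl1, also neuronal markers, ran from the 65.1 to the 91.8 and from the 58.2 to the 84.0 percentile. Glial RNA was present too, since Mbp, the myelin basic protein, and Gfap, the astrocyte filament, lay above the 98th and the 93rd percentile on every array. Nothing in the labels says whether the rats within a group shared a day or a batch, so p-values measure the spread between these arrays.

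Of 18625 probe sets tested, 29 were higher in the regenerating neurons (0.156%) and 11 were lower (0.0591%) at an adjusted p below 0.05 (limma, Benjamini-Hochberg). The 29 include 25 with a single gene symbol, which stand for 24 genes, and the 11 include 5 with a symbol. Without adjustment 1113 probe sets were higher and 3274 lower at p below 0.05, where 931 in all would pass by chance. In all 40 calls the signals of the 7 regenerating arrays and of the 3 traced arrays did not overlap, which held for 2.35% of all tested probe sets on the higher side and 9.36% on the lower side. The same shares apply wherever a lack of overlap is given below. Differences are given on the scale of log2(signal + 16), which understates those of dim probe sets. A positive difference was found for 40.8% of all tested probe sets. This share is not matched in brightness to the gene lists, which take the brightest probe set of each gene. In the brightest quartile of tested probe sets 41.0% were lower, against 78.1% in the dimmest, so counts of positive differences in lists of bright genes run higher. The median difference over all tested probe sets was -0.12 as deposited and 0.26 after every array was centred on its own median, which gave 279 higher and 50 lower calls and moved the share of higher calls from 72.5% to 84.8%.

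The calls rest on few control animals. All 40 kept their direction under every other setting in which they were tested, but the number past the threshold moved widely. Without the MM15 array, which leaves 2 controls, 1 probe set was higher and 0 were lower. Leaving out MM18 gave 2 and 0, and leaving out MM19 gave 6 and 1. With the 5 regenerating MM animals against the same controls, 60 were higher and 10 lower. These include 25 of the 29 higher and 6 of the 11 lower calls. Among those lost were Ybx3, Snx9, LOC100911864, Tas2r121 and Rab5b, with adjusted p of 0.0527 to 0.0578 (limma). Leaving out the regenerating array of MM17 gave 188 and 1316, of MM16 30 and 24, of MM13 9 and 1, of MM11 16 and 3, of MM14 16 and 4, of MOON265 33 and 6, and of MOON266 19 and 5. With the Gapdh ratio as a covariate, 1 was higher and 0 lower. The differences of Plek, Fcgr2b, Lgals3 and C1qa were then 2.37, 2.57, 2.31 and 1.79 (limma, adjusted p of 0.134 to 0.341). Those of Cxcl16, Gfap and Sash3 were 1.26, 0.97 and 1.71 (adjusted p = 0.762), against 1.96, 1.33 and 2.12 without the covariate.

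**Figure D1:**
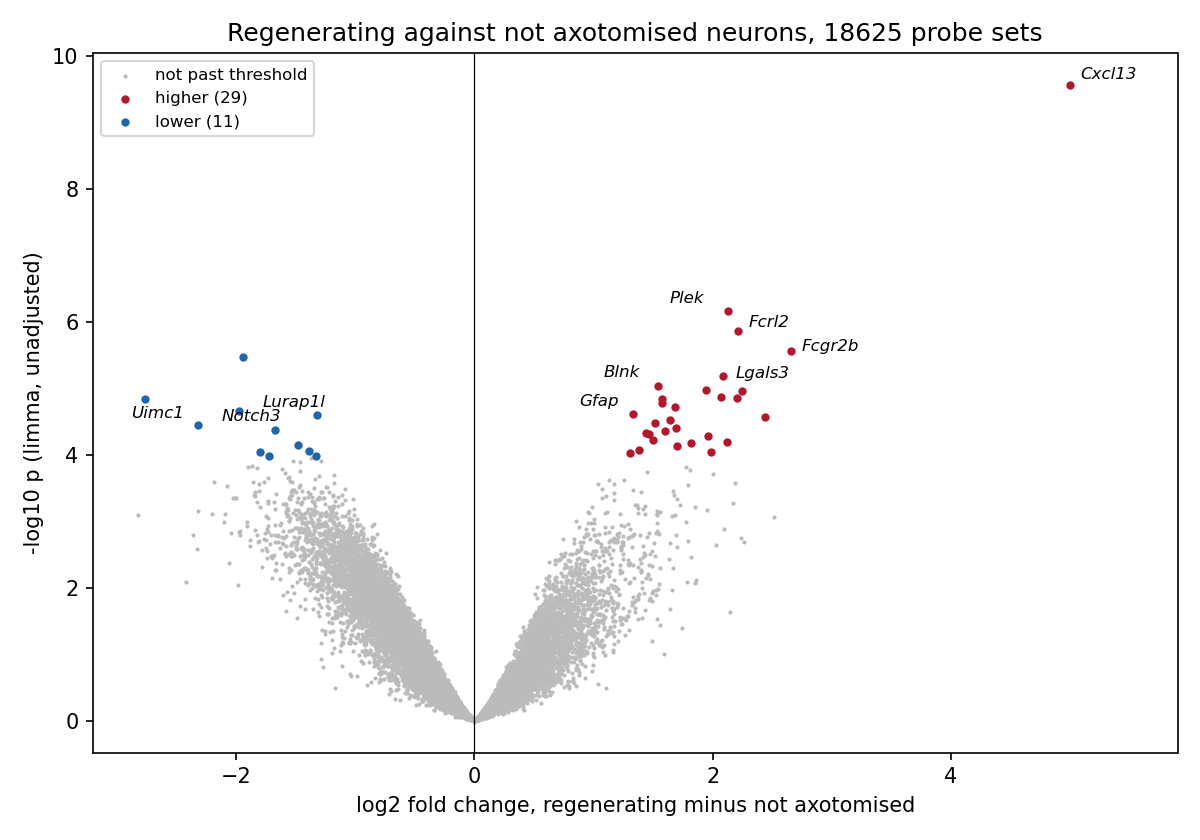
Each point is 1 of 18625 probe sets, placed by its log2 difference between regenerating and not axotomised neurons (x axis) and by minus log10 of its unadjusted limma p (y axis). The 29 higher probe sets are red and the 11 lower ones blue, and Cxcl13 lies far from the rest at a difference of 5.0.

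Cxcl13, the chemokine that draws B cells into follicles, was the gene with the largest difference. Its signal on the regenerating arrays ran from 961 to 2888 with a median of 2498, and the traced arrays of MM15, MM18 and MM19 gave 52.9, 34.5 and 60.1. The lowest regenerating array, MM17, was thus above every traced one by a wide margin. The difference was 5.0 ± 0.32 (SE) on the log2 scale, or 32.0-fold, with an adjusted p of 5.07e-06. Cxcl13 is the only gene that passed the threshold in all 24 alternative settings, those that leave out each array in turn included. Its receptor gene Cxcr5 had a difference of -1.21 and an adjusted p of 0.0682, with regenerating signals of 70.1 to 138 and traced signals of 197 to 386.

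Cxcl16, a membrane-bound chemokine that also serves as a scavenger receptor, rose as well. The regenerating signals were 207 at the lowest, 291 at the median and 441 at the highest, against 22.6, 71.4 and 116 on the traced arrays. The ranges lay apart, with the traced array of MM19 nearest. The difference was 1.96 ± 0.35 (SE), 3.90-fold, at an adjusted p of 0.0347. Of the 19 measured chemokine and chemokine receptor genes, 2 rose, 0 fell, and 8 in all had a positive difference, so the list's median of -0.03 was close to that of all probe sets. Cx3cl1, the neuronal chemokine fractalkine, had a difference of -0.69 (adjusted p = 0.159). The list's median was 0.36 with each array centred on its median.

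Some genes of Fc receptors and of signalling inside leukocytes were among the calls. Of 28 measured members, 5 rose (Plek, Fcrl2, Fcgr2b, Laptm5 and Pik3cd), 0 fell and 19 had a positive difference, with a median of 0.60. Over all tested probe sets 0.156% rose. The gene lists were chosen with earlier results of these data known, so counts in them describe the members and test nothing. Plek, the platelet and leukocyte protein kinase C substrate pleckstrin, gave signals of 578 to 1241 (median 977) on the regenerating arrays and 169, 249.9 and 174 on the traced ones. No regenerating array came down to the traced range. The difference was 2.13 ± 0.25 (SE), 4.37-fold, at an adjusted p of 0.00637.

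Fcrl2, an Fc receptor-like protein of the immunoglobulin family, ran from 431 to 1059 (median 542) and stood at 110.0, 112 and 129 in the traced neurons. The traced values were close together and all below the regenerating ones. Its difference was 2.21 ± 0.28 (SE), with an adjusted p of 0.00866. Fcgr2b, the low-affinity IgG receptor that restrains immune cell activation, ran from 154 to 537 (median 299.8) against 14.1, 40.9 and 57.6. Its lowest regenerating value came from MOON265. The difference was 2.65 ± 0.36 (SE), 6.30-fold, at an adjusted p of 0.0126, the largest after Cxcl13 among the 24 genes that rose.

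Blnk, the adaptor protein that links the B cell receptor to its downstream enzymes, ran from 492 to 862 (median 646) against 214, 220.3 and 206. The traced arrays differed little from each other, and none reached the regenerating range. Its difference was 1.54 ± 0.23 (SE, adjusted p = 0.0209). Pik3cd, the leukocyte form of the phosphoinositide 3-kinase catalytic subunit, ran from 86.7 to 197 (median 136) against 39.3, 39 and 21.2, a difference of 1.64 ± 0.27 (SE, adjusted p = 0.0282). A dimmer probe set of Pik3cd gave -0.54 (adjusted p = 0.230), so the probe sets of this gene disagree. Laptm5, a lysosomal membrane protein of blood cells, ran from 557 to 1180 (median 729.9) against 203, 273 and 280.5, with a difference of 1.58 ± 0.25 (SE, adjusted p = 0.0209). Its other probe set gave 0.51 (adjusted p = 0.325).

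Markers of microglia and macrophages were measured beside these genes. Of 25 members tested, 6 rose (Fcgr2b, Plek, Lgals3, Laptm5, C1qa and Lyz2), 0 fell and 20 had a positive difference, with a median of 0.60. The share that rose over all tested probe sets was 0.156%. The summed signal of the list was 13791 to 24640 on the regenerating arrays and 7975 to 9029 on the traced ones. Lyz2, the lysozyme of phagocytes, ran from 1475 to 3357 (median 1553) against 579.5, 664 and 606. The highest value, of MOON266, stood far above the other regenerating arrays, which lay between 1475 and 1614. Its difference was 1.46 ± 0.26 (SE, adjusted p = 0.0334). Aif1, which encodes the microglial protein Iba1, ran from 49.4 to 566 against 13.6, 90.7 and 82.0, with overlap at MOON265. Its difference of 1.86 did not pass (adjusted p = 0.0909), and another probe set of Aif1 gave -1.53 (adjusted p = 0.0710). With the MM animals alone it was 2.46 and passed (adjusted p = 0.0268).

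Not every defining marker was bright. Itgam, Cx3cr1, Tyrobp and C1qb fell below the filter on dim probe sets, with mean regenerating signals of 2.66, 26.6, 31.5 and 45.6 and mean traced signals of 4.27, 61.2, 61.9 and 14.2. Of the 24 genes that rose, 8 belong to the microglia list or to the leukocyte signalling list, and Plek, Fcgr2b and Laptm5 belong to both. Both lists were chosen with earlier results of these data known, so this count is a description and not a test. In pooled tissue of this kind, more RNA per neuron, more RNA from neighbouring cells and more such cells around each captured neuron cannot be told apart. The part of microglia in these differences was not tested. Of 6 measured T and B cell markers 0 rose and 0 fell, 2 had a positive difference, and Ms4a1, which encodes the B cell marker CD20, had a difference of -1.24 (adjusted p = 0.0801). The 2 positive differences were those of Cd3e and Cd3g, 1.04 and 0.43 (limma, adjusted p = 0.539 and 0.485). Cd3e ran from 7.7 to 591.5 (median 24.6) on the regenerating arrays and stood at 39.8, 16 and 18.8 on the traced ones. Cd79b and Cd3d were near background, with mean signals of 2.01 and 2.43 on the regenerating arrays and 2.37 and 3.53 on the traced ones. The summed T and B cell signal was 275 to 800.0 against 384 to 626. The list of neutrophil and red cell markers gave 1 positive difference among 3 measured members, the red cell genes Alas2, Slc4a1 and Hbb. No neutrophil marker was measured, since S100a8, S100a9, Lcn2, Camp and Cxcr2 fell below the filter on dim probe sets.

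Galectins, annexins and other tissue injury genes formed the list with the highest median among the immune and injury lists, 0.67 over 26 measured members, of which 3 rose (Lgals3, Anxa3 and Lyz2), 0 fell and 21 had a positive difference. Lgals3, galectin 3, a sugar-binding protein of phagocytes, ran from 275 to 739 (median 403) against 69.3, 70.9 and 125. All regenerating arrays were above all traced arrays. The difference was 2.08 ± 0.30 (SE), 4.24-fold, at an adjusted p of 0.0199. Anxa3, a calcium-dependent membrane-binding annexin, rose at 2 probe sets, by 1.44 (adjusted p = 0.0334) and by 2.07 (adjusted p = 0.0209). At the brighter of these probe sets it ran from 693 to 1428 (median 1012) against 282, 395 and 474. Its remaining 2 probe sets gave 0.52 and 0.81 and did not pass. Anxa2, annexin A2, ran from 686 to 1974 against 333, 460.3 and 319 with no overlap, but its difference of 1.38 had an adjusted p of 0.0682. Tgfbr1, a receptor for transforming growth factor beta, gave 1.26 at the same adjusted p.

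Complement genes were measured with 14 members, of which 1 rose, 0 fell and 10 had a positive difference (median 0.62). C1qa, a chain of the C1q molecule that starts the classical cascade, ran from 755 to 1756 (median 1400) against 378, 458 and 483. The lowest regenerating value, of MOON265, was still above the traced range. Its difference was 1.52 ± 0.25 (SE, adjusted p = 0.0290). C3, the central component, ran from 109 to 1055 (median 506) against 53.8, 76.8 and 83.8, a difference of 2.03 ± 0.55 (SE) that did not pass (adjusted p = 0.0694), while the MM animals alone gave 2.56 for C3 (adjusted p = 0.0212). C1s and C1r, the proteases of the C1 complex, gave 1.11 and 0.90 with adjusted p of 0.0682 and 0.0754. Their ranges did not overlap either.

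Antigen presentation and interferon genes had 18 positive differences among 27 measured members, and 0 rose or fell. Cd74, the invariant chain of class II molecules, ran from 70.6 to 328 (median 149) against 32.6, 52.0 and 47.8, a difference of 1.53 with an adjusted p of 0.0682. B2m, the light chain of class I molecules, gave 0.63 (adjusted p = 0.0759) with regenerating signals of 2163 to 2838 and traced signals of 1303 to 1696. The immunoproteasome subunits Psmb10 and Psmb9 gave 0.74 and 1.43, with adjusted p of 0.0684 and 0.0713. Of these 4 genes only Psmb9 overlapped between the groups.

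Of 20 measured astrocyte markers, 1 rose, 0 fell and 16 had a positive difference (median 0.47). Gfap, the intermediate filament that reactive astrocytes accumulate, ran from 2582 to 4201 (median 2917) against 955, 1340 and 1384. All 7 regenerating arrays exceeded all traced ones. Its difference was 1.33 ± 0.22 (SE), 2.51-fold, at an adjusted p of 0.0260. Fabp7, a fatty acid-binding protein of radial glia and astrocytes, gave 1.09 (adjusted p = 0.0684), and Vim, the filament vimentin, gave 0.92 (adjusted p = 0.0802). Cst3, cystatin C, a secreted protease inhibitor, gave 0.89 (adjusted p = 0.0769). S100b and Aldoc, also astrocyte markers, gave 0.48 and 0.46 with overlapping ranges. Without MM15 the differences of Cst3, S100b and Aldoc were 0.48, 0.20 and 0.22. The summed astrocyte signal was 29755 to 46388 on the regenerating arrays and 28959 to 36345 on the traced ones, so the sums overlapped, and the part of astrocytes in these differences was not tested.

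Mt2A, a metal-binding metallothionein induced by stress and injury, ran from 1606 to 3616 (median 2117) against 940.5, 582 and 677. The ranges lay apart. The difference was 1.68 ± 0.27 (SE), 3.21-fold, at an adjusted p of 0.0239. It was the only 1 of 24 measured metallothionein and antioxidant genes to rise, and 14 had a positive difference (median 0.15). Srxn1, the enzyme sulfiredoxin, gave 1.24 (adjusted p = 0.0731), and Sod3, extracellular superoxide dismutase, gave -1.47 (adjusted p = 0.0769).

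Arhgap25, a GTPase-activating protein of Rac in blood cells, ran from 89.0 to 259 (median 168) against 13.7, 40.1 and 13.3. Its difference was 2.25 ± 0.34 (SE), 4.75-fold, at an adjusted p of 0.0209. Rnaset2, a lysosomal ribonuclease, ran from 1117 to 2018 (median 1650) against 328, 629.9 and 658, with a difference of 1.58 ± 0.25 (SE, adjusted p = 0.0221). Neither gene had a regenerating value within the traced range. Kazn, which encodes the junctional protein kazrin, gave 1.94 ± 0.29 (SE, adjusted p = 0.0209) at a probe set with traced signals of 16.3, 10.9 and 12.4 and regenerating signals of 43.1 to 133. A brighter probe set of Kazn gave -0.07 and another gave -1.14, neither past the threshold, so the direction for this gene depends on the probe set.

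A further 7 genes rose that fall outside the naming rule and were chosen after their values were seen. Abca1, the exporter that loads cholesterol onto lipoproteins, gave 1.5 (adjusted p = 0.0386), while its other 2 measured probe sets gave -0.45 and 0.32. Marcks, an actin-binding substrate of protein kinase C, gave 1.60 (adjusted p = 0.0330) at a dimmer probe set and 0.62 (adjusted p = 0.0866) at its brightest. The other measured probe sets of Marcks gave 0.10 and 0.09 (adjusted p = 0.887 and 0.905), so the rise depends on the probe set. Sash3, a signalling adaptor of lymphocytes, gave 2.12 (adjusted p = 0.0402). Plac8 gave 1.69, Snx9, a sorting nexin of endocytosis, gave 1.70, LOC100911864 gave 1.98 and Ybx3, a cold shock RNA-binding protein, gave 1.31, with adjusted p of 0.0324 to 0.0458. The remaining 4 higher probe sets carry several symbols or none and are not named here.

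**Figure D2:**
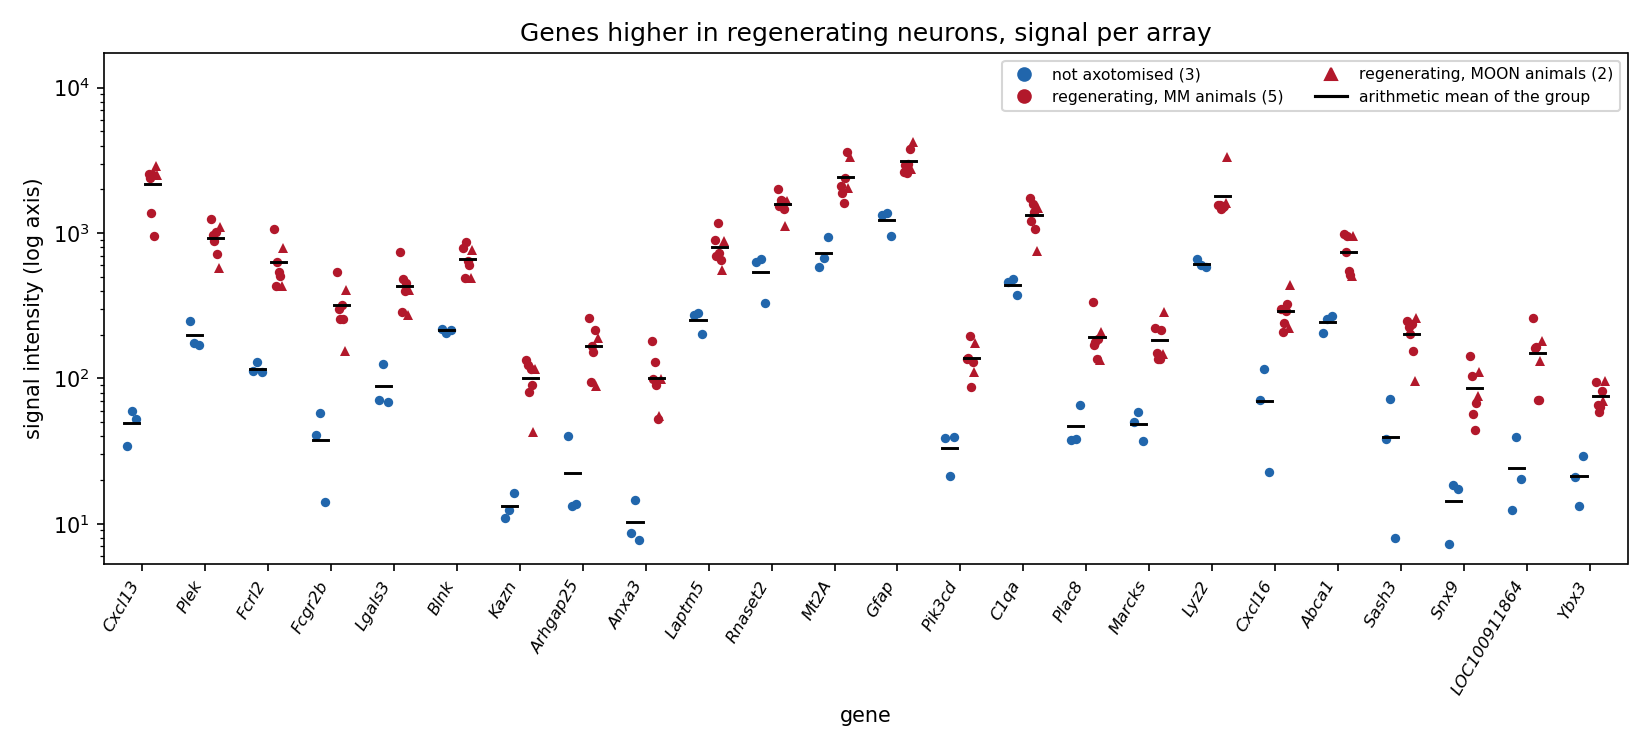
Signal intensity per array (log axis) for the 24 genes that rose, ordered by p, each at its probe set with the smallest p. Traced arrays are blue, regenerating arrays of MM animals red circles and of MOON animals red triangles, with the arithmetic mean as a bar. In every gene the red points lie above the blue ones.

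The regenerating arrays did not share the highest values evenly. Of the 25 probe sets with a symbol that rose, MM11 was the highest regenerating array in 13 and MOON266 in 7, and MOON265 was the lowest in 12. Among the traced arrays MM15 was the lowest in 14 and MM19 the highest in 15. For Cxcl13 the MM animals alone gave a mean of 1957 ± 740 (SD, n = 5) against 49.2 ± 13.2 (SD, n = 3) in the traced neurons.

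Among the genes that fell, 5 carry a single symbol. Lurap1l, a relative of an adaptor that organises actin filaments, ran from 232 to 389 (median 275) on the regenerating arrays against 743, 719 and 667 on the traced ones. The ranges lay well apart. It fell by 1.32 ± 0.22 (SE) on the log2 scale, 2.50-fold, at an adjusted p of 0.0260. Uimc1, a ubiquitin-binding protein of DNA repair, ran from 8 to 66.7 (median 22.9) against 396, 161 and 127, and fell by 2.32 ± 0.39 (SE, adjusted p = 0.0297). A brighter probe set of Uimc1 gave -0.54 (adjusted p = 0.148). Its traced value in MM15 was far above those of the other 2 controls.

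Notch3, a Notch receptor of vascular mural cells and neural progenitors, ran from 25.1 to 61.1 (median 37.3) against 249.6, 115 and 143, and fell by 1.67 ± 0.29 (SE, adjusted p = 0.0324). Rab5b, a small GTPase of early endosomes, ran from 33.3 to 67.9 against 198, 129 and 113, and fell by 1.33 ± 0.25 (SE, adjusted p = 0.0490). The brightest probe set of Rab5b, at a mean of 2520 against 3290, gave -0.36, and the other 2 measured probe sets gave -1.23 and -1.10. None of these 3 passed the threshold. Tas2r121, a bitter taste receptor, ran from 14.4 to 71.7 against 188, 131 and 112, and fell by 1.73 ± 0.33 (SE, adjusted p = 0.0490). The other 6 lower probe sets carry no single symbol.

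Brightness went with direction across the array. Among the tested probe sets in the lowest quartile of brightness the median difference was -0.44 and 78.1% were lower, and in the highest quartile the median was 0.09 and 41.0% were lower. The lowest quartile held 8 of the 11 lower calls, and 10 of the 11 had a mean below 100 on the regenerating arrays. Its part in the lower calls was not tested.

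Injury-induced transcription factors did not pass the threshold: of 21 measured members 0 rose, 0 fell and 13 had a positive difference (median 0.15). Atf3, the stress-induced factor used as a marker of axotomised neurons, ran from 136 to 1359 (median 489.7) against 114, 33.3 and 150.2. All regenerating arrays but that of MM16 were above all traced ones. The difference was 2.51 ± 0.60 (SE), 5.70-fold, with an adjusted p of 0.0684. Atf3 passed with each array centred on its median (limma, adjusted p = 0.0458) and with array weights (0.0156). It did not pass with the MM animals alone (0.0820) or without MM15 (0.388). Klf7, a factor that promotes axon growth, ran from 541 to 917 (median 618) against 239.7, 369.8 and 422, with no overlap, a difference of 0.97 and an adjusted p of 0.0684. A dimmer probe set of Klf7 gave -0.98 (adjusted p = 0.0769), so the direction for this gene depends on the probe set. Crem and Fos gave 1.10 and 0.93, with adjusted p of 0.0704 and 0.0847. Dimmer measured probe sets of Crem gave -0.06 and 0.67 (limma, adjusted p = 0.909 and 0.168).

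Jun, the AP-1 subunit induced by axotomy, ran from 701 to 1433 (median 916) against 459.6, 751 and 823, a difference of 0.50 ± 0.25 (SE, adjusted p = 0.242), and its other 2 measured probe sets gave -0.49 and 0.32. Stat3, which carries the injury signal of gp130 cytokines, ran from 104 to 775 against 236, 363 and 346. Its 2 lowest values were those of the MOON animals, and the difference was 0.15 ± 0.55 (SE, adjusted p = 0.902). With the MM animals alone Stat3 gave 0.78 (adjusted p = 0.107), and a dimmer probe set over all 10 arrays gave -1.05 (adjusted p = 0.0793). Sox11, Cebpd and Myc were among 6 members below the filter on dim probe sets, with mean regenerating signals of 12.4, 21.1 and 8.79. Of the 9 measured gp130 cytokine, receptor and suppressor genes, 0 passed and 4 had a positive difference (median -0.0033, or 0.39 with each array centred on its median). Socs3, Lif and Il6 were below the filter, and Lifr, the shared receptor subunit for leukaemia inhibitory factor, gave -1.27 (adjusted p = 0.0946).

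Growth and regeneration effectors gave 18 positive differences among 26 measured members, and 0 passed in either direction (median 0.27). Gap43, the growth cone phosphoprotein, ran from 2212 to 5451 (median 3072) against 6913, 1746 and 2102. The traced array of MM15 was above every regenerating one, and the difference was 0.16 ± 0.40 (SE, adjusted p = 0.843). Without MM15 it was 0.78 (adjusted p = 0.403). Stmn2, a tubulin-binding protein of growing axons, gave -0.30 ± 0.31 (SE, adjusted p = 0.604), and Basp1, a membrane protein of growth cones, gave 0.27 (adjusted p = 0.553). Sprr1a, a small proline-rich protein induced in regenerating ganglion neurons, gave 0.87 (adjusted p = 0.314), and the cell adhesion molecule L1cam gave -1.07 (adjusted p = 0.0713). Hspb1, a small heat shock protein, gave 0.97 (adjusted p = 0.267), where the array of MM14 stood at 907 and the other 6 between 105 and 228.

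Of Vip, Gal and Npy, injury-responsive neuropeptides, Vip had the largest difference. It ran from 832 to 2866 (median 1657) against 445, 128 and 782, without overlap, and its difference was 2.18 ± 0.46 (SE), 4.54-fold, at an adjusted p of 0.0682. Vip passed with quantile normalization, centring, the name prefix as a term and array weights (limma, adjusted p of 0.0135 to 0.0488). It did not pass with the MM animals alone (0.0764) or without MM15 (0.347). Gal, galanin, ran from 265 to 732 (median 489) against 222, 166 and 239, also without overlap, a difference of 0.97 ± 0.31 (SE, adjusted p = 0.0903). Npy, neuropeptide Y, overlapped and gave 0.20 ± 0.29 (SE, adjusted p = 0.721).

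**Figure D3:**
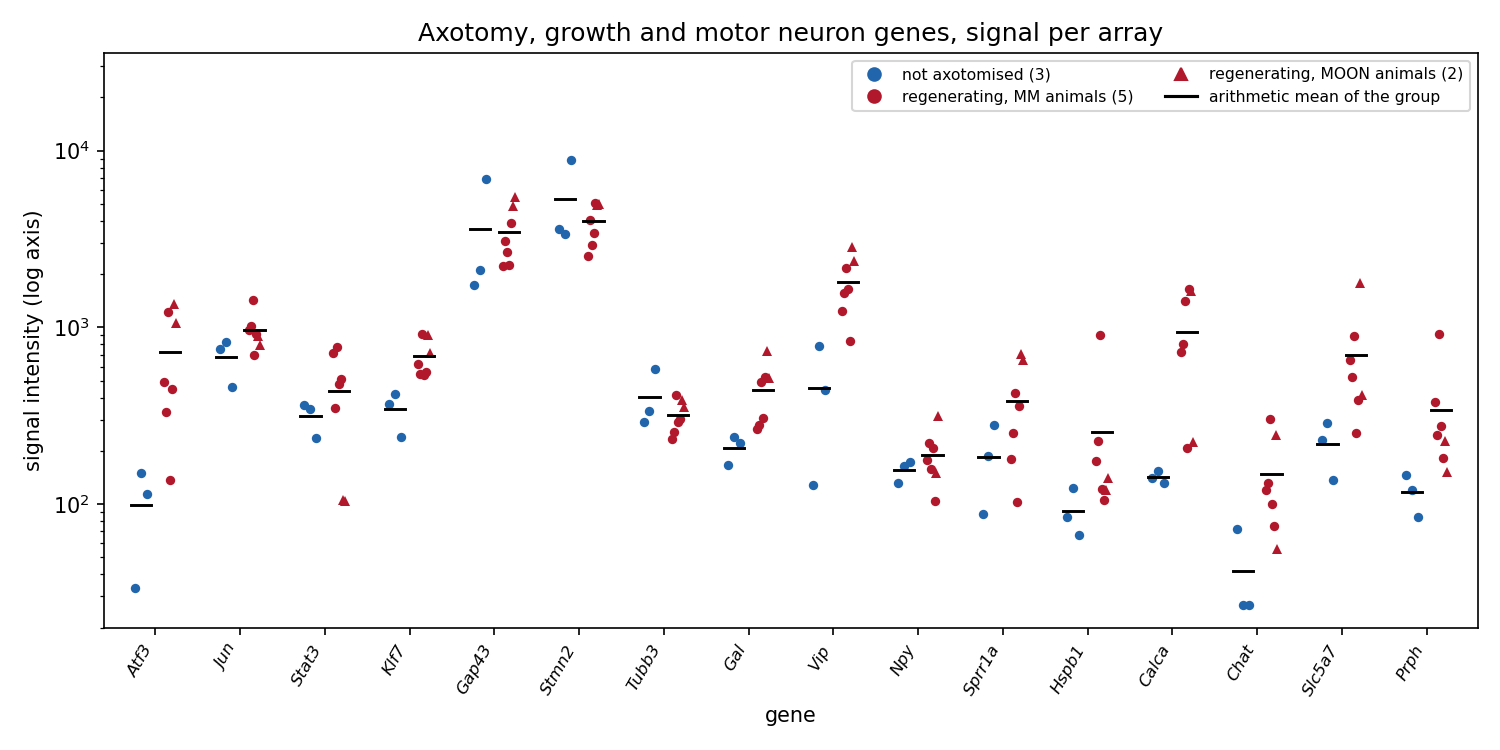
Signal intensity per array (log axis) for 16 genes of axotomy, growth and cholinergic motor neurons, none past the threshold, with traced arrays in blue, regenerating arrays of MM animals as red circles and of MOON animals as red triangles, and the arithmetic mean as a bar. Vip, Gal, Klf7, Calca and Prph do not overlap between the groups, and the traced array of MM15 tops Gap43 and Stmn2.

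Motor neuron markers had the highest median of the 39 lists, 0.95 over 14 measured members, with 10 positive differences, and 0 rose or fell. Calca, the precursor of calcitonin gene-related peptide, ran from 208 to 1644 (median 801) against 132, 139.6 and 154. The regenerating arrays spread widely while the traced ones lay close together, and the difference was 2.24 ± 0.58 (SE, adjusted p = 0.0684). Slc5a7, the choline transporter, ran from 251 to 1784 (median 526) against 137, 231 and 286, a difference of 1.41 (adjusted p = 0.0927). Chat, the acetylcholine-synthesising enzyme, ran from 55.8 to 303 (median 121) against 26.7, 72.2 and 26.7, a difference of 1.4 (adjusted p = 0.0837). Both overlapped between the groups.

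Prph, the filament peripherin, ran from 151 to 914 against 84.0, 145 and 120.5, a difference of 1.21 (adjusted p = 0.110). Uts2, the motor neuron peptide urotensin 2, gave 1.06 (adjusted p = 0.148), Slc18a3, the vesicular acetylcholine transporter, 0.66 (adjusted p = 0.450), and Ret, the receptor subunit for glial cell line-derived factors, 0.64 (adjusted p = 0.158). Isl1, a homeodomain factor of developing motor neurons, pointed the other way at -1.4 (adjusted p = 0.0708) and was dim, at 1.60 to 59.5 against 74.9 to 138. The sensory ganglion list overlaps the motor list in Prph, Isl1 and Calca and had 2 positive differences among 7 (median -0.84), and P2rx3 and Scn10a gave -1.49 and -1.12. The summed motor neuron signal was 8639 to 16048 against 7745 to 11690.

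General neuronal markers had 4 positive differences among 19 measured members (median -0.26), and 0 passed. The excitatory marker Slc17a6, a vesicular glutamate transporter, ran from 2348.5 to 4702 against 3647, 3393 and 3424, a difference of -0.04 ± 0.24 (SE, adjusted p = 0.945). Gad1, the GABA-synthesising enzyme, ran from 2578 to 6031 against 12719, 4014 and 3945, a difference of -0.51 ± 0.37 (SE, adjusted p = 0.445) in which the traced array of MM15 was the highest of all. Calb2, calretinin, had no overlap and gave -0.98 (adjusted p = 0.0684). The neurofilament genes Nefl, Nefm and Nefh gave -0.05, -0.10 and -0.20, with adjusted p of 0.720 or more. Among 10 neurofilament and intermediate filament genes Gfap was the 1 that rose, and the list's median was -0.08, or 0.31 after centring. Markers of excitatory and inhibitory interneurons had 1 positive difference among 9 (median -0.14, or 0.24 after centring). After centring, Nefl, Nefm, Nefh, Stmn2, Tubb3, Slc17a6 and Mbp had positive differences. The list of general neuronal markers had a median of 0.01 without MM15 and 0.12 after median centring.

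Tubulin and microtubule genes were balanced, with 16 positive differences among 29 (median 0.04), and actin and growth cone genes had 19 among 29 (median 0.10), and 0 passed in either list. Tubb3, the neuronal beta tubulin, gave -0.28 (adjusted p = 0.563). Limk1, the kinase that inactivates cofilin, ran from 192 to 367 (median 253) against 713, 550.5 and 494, a difference of -1.18 ± 0.24 (SE) that came close to the threshold (adjusted p = 0.0674).

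Synaptic transmission genes had mostly negative differences, and 0 of their measured members passed. All tested probe sets leaned the same way, with 40.8% of them at a positive difference. Synaptic vesicle and release genes had 7 positive differences among 26 (median -0.22), transmitter receptors 10 among 29 (median -0.29) and voltage-gated channels 10 among 29 (median -0.27), where all tested probe sets had a median of -0.12. Syn1, the vesicle phosphoprotein synapsin, ran from 94.5 to 454 (median 166) against 1212, 648 and 740.2, a difference of -2.07 ± 0.44 (SE), 4.21-fold, at an adjusted p of 0.0682. Its ranges did not overlap.

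Chrna7 and Chrm3, a nicotinic and a muscarinic acetylcholine receptor, gave -1.56 and -1.4, both with an adjusted p of 0.0682. Grm8, a presynaptic metabotropic glutamate receptor, ran from 228 to 676 (median 397) against 1304, 932 and 729, a difference of -1.24 (adjusted p = 0.0684). These 3 receptors had no overlap between groups, which held for 9.36% of all tested probe sets on the lower side. Hcn2 and Kcnq3, channels of pacemaker and M currents, gave -1.10 and -0.95 with adjusted p of 0.0710 and 0.0760, from means below 200 in both groups. With each array centred on its median the medians of these 3 lists turned to 0.17, 0.10 and 0.12, still below the 0.26 of all probe sets under that scaling. Fgf1, a growth factor of motor and sensory neurons, had the largest positive difference among neurotrophic factors and receptors, 0.95 (adjusted p = 0.0832), in a list of 25 with 6 positive differences (median -0.22, or 0.17 after centring).

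**Figure D4:**
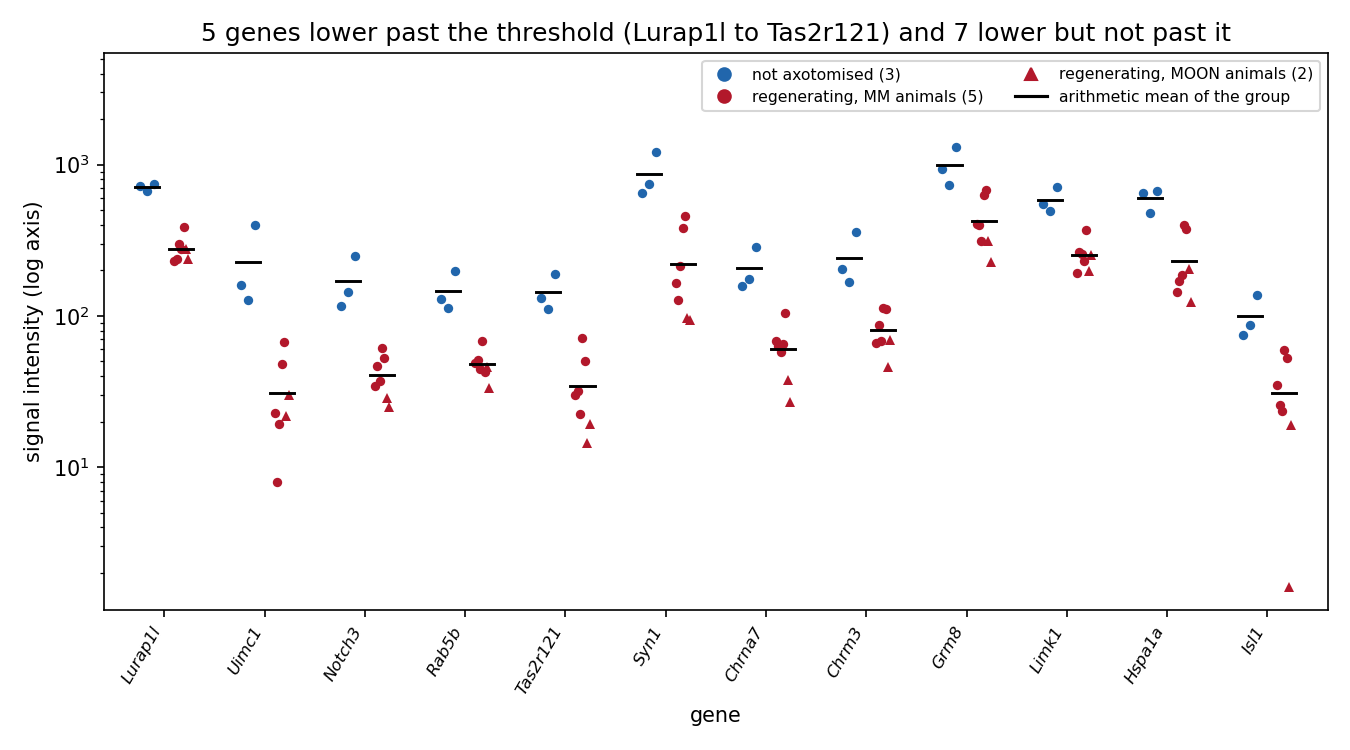
Signal intensity per array (log axis) for the 5 named genes that fell (Lurap1l, Uimc1, Notch3, Rab5b and Tas2r121) and for 7 genes with negative differences that did not pass (Syn1 to Isl1), with traced arrays in blue, regenerating arrays of MM animals as red circles and of MOON animals as red triangles, and the arithmetic mean as a bar. All 12 genes separate the groups, as did 9.36% of all tested probe sets on the lower side, and most signals on the regenerating arrays lie below 500.

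Most genes of the ribosome and proteasome had positive differences, none past the threshold. Of 39 measured cytoplasmic ribosomal protein genes, 38 had a positive difference (median 0.54), and 0 rose or fell. Rpl5 ran from 1588 to 2203 (median 1839) against 474, 1313 and 1252, a difference of 1.0 (adjusted p = 0.0708), and Rps9 gave 0.92 (adjusted p = 0.0684). The exception, Rpl39, gave -1.02 (adjusted p = 0.102). The traced array of MM15 was the lowest of the 3 for Rpl5 and Rps9, and without it the list's median was 0.28. Ribosomal protein genes have many processed copies in the genome, so their probe sets may share signal with them.

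Proteasome subunits had 30 positive differences among 37 (median 0.37, or 0.11 without MM15). Lysosomal genes had 28 among 35 (median 0.32), and Ctsh, a cathepsin, ran from 696 to 1280 (median 891) against 193, 497 and 475, a difference of 1.33 (adjusted p = 0.0682). Npc2, the lysosomal cholesterol carrier, gave 1.07 at the same adjusted p. Tfeb, the transcription factor of lysosomal genes, was dim and gave -1.37 (adjusted p = 0.0684). Oxidative phosphorylation genes had 25 positive differences among 37 (median 0.15, or -0.06 without MM15) and glycolysis genes 8 among 15 (median 0.06, or -0.05 without MM15).

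Among stress genes, heat shock proteins and chaperones had 19 positive differences among 28 (median 0.24), and Hspa1a, the inducible Hsp70, gave -1.44 (adjusted p = 0.0682), with regenerating signals of 123 to 400.3 and traced signals of 669.9, 654 and 480.0. Amino acid and integrated stress response genes had 15 among 24 (median 0.21), and Chac1, a glutathione-degrading target of that response, gave -0.94 (adjusted p = 0.0737). Apoptosis and p53 response genes had 11 among 20 (median 0.14). Cell cycle genes had 7 among 22 (median -0.20, or 0.19 after centring). None of these members passed.

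Cholesterol synthesis genes had 4 positive differences among 21 (median -0.18, or 0.21 after centring), and their summed signal was 11582 to 14842 on the regenerating arrays and 16546 to 21540 on the traced ones, without overlap. Nsdhl, an enzyme late in that pathway, ran from 769 to 1706 (median 818) against 3106, 1932 and 1670, a difference of -1.13 (adjusted p = 0.0697). A dimmer probe set of Nsdhl gave 0.03 (adjusted p = 0.961). Sc5d, another late enzyme, gave -0.94 (adjusted p = 0.135), with 9348 in MM15 and 2931 and 2959 in the other controls. Srebf1 gave 0.86 and Srebf2 -0.53, the factors that switch on lipid genes, with adjusted p of 0.0966 and 0.224, and another probe set of Srebf1 gave -0.51. Extracellular matrix and growth inhibitor genes had 10 among 23 (median -0.13, or 0.26 after centring), with Sema6a at 1.18 (adjusted p = 0.0684) and Nrp1, a semaphorin receptor, at 0.61 (adjusted p = 0.0978). A dimmer probe set of Sema6a gave -0.04 (adjusted p = 0.962).

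Markers of other cell types gave few calls. Oligodendrocyte markers had 5 positive differences among 16 (median -0.18), with Mbp at -0.01 ± 0.22 (SE, adjusted p = 0.982) and summed signals of 13650 to 22572 against 17572 to 23042. Endothelial markers had 5 among 12 (median -0.27), with Vwf at 1.29 and Pecam1 at -1.13, and fibroblast and meningeal markers 6 among 14 (median -0.16). Schwann cell markers had 4 among 8 (median 0.23), and the 1 that rose is Gfap, which astrocytes also express. After centring, the medians of the oligodendrocyte, endothelial and fibroblast lists were 0.21, 0.12 and 0.23.

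**Figure D5:**
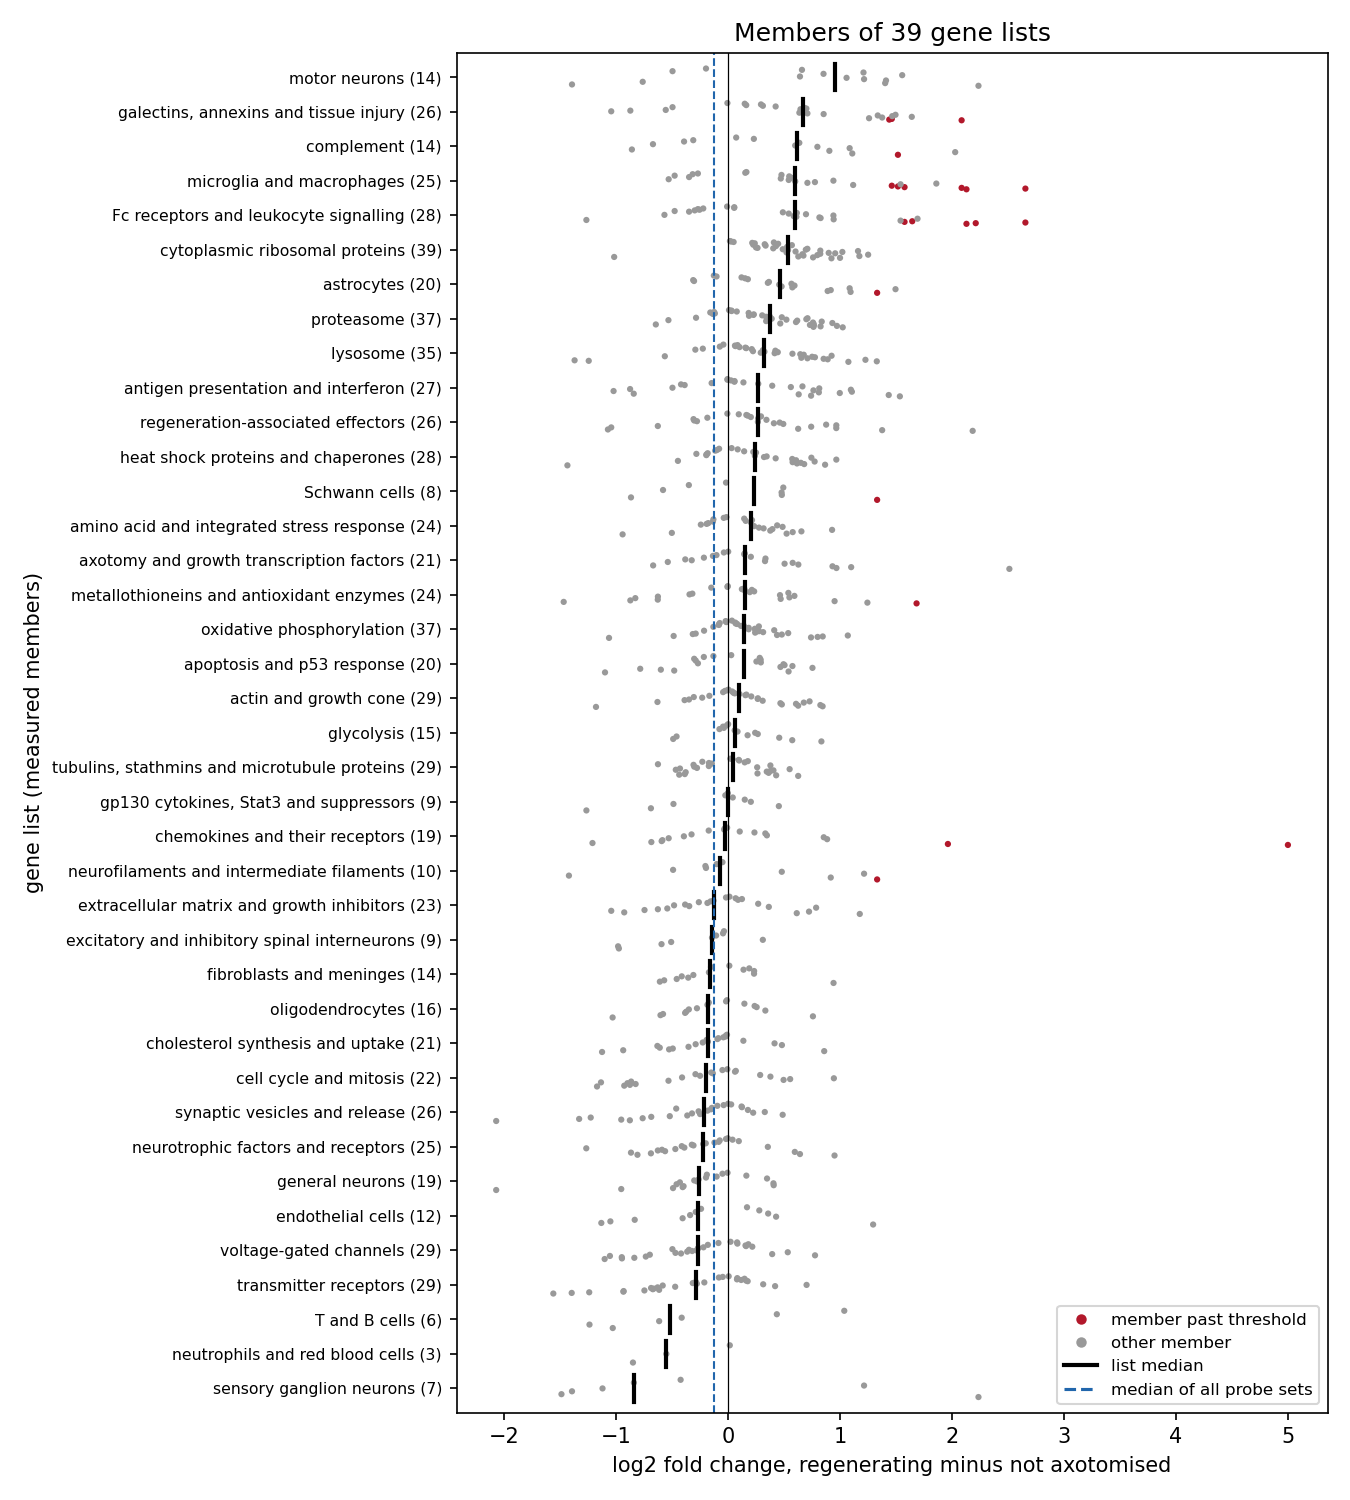
Log2 difference, regenerating minus not axotomised, for the measured members of 39 gene lists, 1 point per gene, ordered by list median (black bar), with the median of all probe sets as a dashed line. Red points passed the threshold, and lists that hold them include those of leukocyte signalling, microglia, tissue injury, chemokines and complement. Gfap is the only red point of the astrocyte list, and a gene of several lists has a point in each. Motor neuron markers have the highest median and no red point.

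The same rats gave axotomised neurons that had not regenerated, so the genes above could be set against those within animals, with the animal as a block. That comparison called 3 of 18625 probe sets (0.0161%), and 0 of the 24 genes that rose. Their within-animal differences ran from -0.34 to 0.58, and the smallest adjusted p was 0.540. An unadjusted p below 0.05 was found for 4 of them, and for 1318 of all 18625 tested probe sets. Cxcl13 had a within-animal difference of -0.34 ± 0.20 (SE, adjusted p = 0.720), Plek -0.17 and Gfap -0.03. The 5 genes that fell gave -0.40 to -0.17, with adjusted p of 0.697 or more.

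For Calca the within-animal difference was 2.22 ± 0.32 (SE, adjusted p = 0.0314), beside the 2.24 found against the traced neurons. Uts2 gave 1.11 ± 0.17 (SE, adjusted p = 0.0419) within animals. Slc5a7 and Chat gave 1.24 and 1.15 there, with adjusted p of 0.237 and 0.523. Atf3 gave 0.20 and Vip 0.43 within animals, with adjusted p of 0.837 and 0.702, against 2.51 and 2.18 in the comparison with traced neurons. The regenerating arrays are shared by both comparisons, so their values are not independent of each other.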

How the data were processed

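Affymetrix rat arrays measured RNA of laser-captured neurons, 1 array per sample. The values are signal intensities that the authors deposited on a linear scale, made with GCOS per the submitters' processing notes (version, probe summary and build are not given in the sources used here). On every array their mean after trimming 2% at each end was 200.044 to 200.084. Precision is limited by 7 and 3 arrays.

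An offset of 16 was added and log2 taken. Of 31099 probe sets, 57 controls and the 12417 whose mean over all 17 arrays lay below the 40th percentile were dropped. The platform table gave 13224 of the 18625 tested probe sets 1 symbol, 300 several and 5101 none. Groups follow the sample titles. The groups were compared with limma 3.58.1 (R 4.3.3; lmFit and eBayes with a trend), with Benjamini-Hochberg adjustment over all tested probe sets, after the procedure was tested on simulated data. The within-animal comparison used the animal as a block, since its paired samples come from the same rat per the labels. Whole-array measures had exact permutation tests.

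Named were up to 12 genes in each direction with the smallest adjusted p, up to 4 members with the smallest p of each of 39 gene lists, and a set of axotomy, motor neuron, leukocyte and glial genes at their brightest probe set. A list takes 1 probe set per gene, the brightest. The members and lists were chosen with earlier results of these data known. Alternatives were another scaling, offset, filter, variance model, array weights, a fit over 17 arrays, name prefix, MM animals alone, the Gapdh ratio as a covariate and leaving out each array.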

Additional observations from a re-analysis of the deposited data

Results flagged for a closer look

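Among 116 results checked over the 7 regenerating arrays, 2 had an array far from the others, where chance alone gives about 1 in 20 groups. For Lyz2 the array of MOON266 had a signal of 3357.1 and the next highest 1614.3, a gap that was 0.891 of the whole range on the log2(signal + 16) scale. For Hspb1 the array of MM14 had 906.8 and the next highest 227.7, a gap of 0.656 of the range on the same log2 scale.

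For Calca and Uts2 the regenerating neurons differed from the non-regenerating neurons of the same animals, by 2.22 and 1.11 on the log2 scale (limma, adjusted p = 0.0314 and 0.0419), so the difference from traced neurons was not the same for both kinds of axotomised neuron.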

How the results depend on the processing

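The 40 calls kept their direction in every alternative that tested them, and the numbers past the threshold did not hold. Against 29 higher and 11 lower probe sets, quantile normalization gave 139 and 70, centring each array on its median 279 and 50, an offset of 4 gave 28 and 5, an offset of 64 gave 125 and 734, no filter 24 and 24, a filter at the 70th percentile 19 and 1 (fewer probe sets tested), array weights 860 and 2271, 1 fit over 17 arrays 27 and 2, the name prefix as a term 135 and 67, MM animals alone 60 and 10, and the Gapdh ratio as a covariate 1 and 0. MM animals alone with centring, an alternative chosen after seeing the data, gave 176 and 11. Leaving out 1 array at a time gave 1 to 188 higher and 0 to 1316 lower. The causes were not tested. Within animals, the paired count of 3 became 0 with no replicate block, and 1318 probe sets at an unadjusted p under 0.05 became 217.

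Of 111 named results, 98 never changed sign, and the 13 that did had not passed the threshold. The 30 past the threshold fell short of it in 209 of 709 alternative fits. The 81 not past it came to pass, with the same sign, in 186 of 1921. Under quantile normalization, Nefh was 0.073, Mbp was 0.054, Nefl was 0.097 and the brighter Kazn probe set was 0.29. Under centring, Nefh was 0.19, Stmn2 was 0.086, Mbp was 0.38, Nefm was 0.29, Slc17a6 was 0.35, Nefl was 0.34, Tubb3 was 0.11 and the brighter Kazn probe set was 0.32. With array weights, Nefh was 0.19, Mbp was 0.0604 and Nefl was 0.094. With the prefix term, and with MM animals alone, Gap43 was -0.093. With the Gapdh ratio as a covariate, Nefh was 0.081, Ret was -0.11 and S100b was -0.021. With MM animals alone and centring, Nefh was 0.012, Mbp was 0.22, Nefm was 0.14, Slc17a6 was 0.054, Nefl was 0.046 and the brighter Kazn probe set was 0.077.

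Leaving out 1 array at a time gave -0.0725 to 0.06 for Mbp, -0.12 to 0.051 for Slc17a6, -0.22 to 0.21 for Nefl, -0.041 to 0.41 for Stat3, -0.21 to 0.78 for Gap43, -0.79 to 0.048 for Gad1, -0.47 to 0.22 for Nefh, -0.55 to 0.15 for Stmn2, -0.47 to 0.0096 for Tubb3 and -0.16 to 0.082 for the brighter Kazn probe set. Without MM15, Jun was 0.25, Crem 0.69, Slc18a3 0.40, Ret 0.36, Calb2 -0.64, Sod3 -0.89, Chac1 -0.58, Sc5d -0.38 and Rpl39 -0.67. Signals near background and 3 control arrays limit what could be detected.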
